A study of Homo sapiens with 9 samples.

Results

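Interferon-stimulated genes are the genes that a cell switches on when interferon reaches its receptors. They were examined here in Raji, an established human cell line grown from a Burkitt lymphoma, a tumour of B cells. A list of 48 known interferon-stimulated genes was matched to the expression table by gene identifier or symbol, with the interferon regulatory factors and nucleic acid sensors left out. Of the 48, 37 were found among the 15436 genes of the table. The other 11 (OAS3, IFITM2, IFITM3, MX1, MX2, HERC5, HERC6, USP18, PARP14, CMPK2 and XAF1) were not analysed here. Of the 37, 34 were abundant enough to test, that is, they had a CPM (counts scaled to library size) of 1 or more in 3 or more libraries.

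Bulk messenger RNA was sequenced from 9 libraries of Raji cells in 3 groups of 3. The DMSO group received the solvent. The HU group received hydroxyurea, which inhibits ribonucleotide reductase and thereby slows replication forks. The Thy-Noc group received thymidine, which in excess halts DNA synthesis, and nocodazole, which depolymerises microtubules and arrests cells in mitosis. The series set out to describe how DNA-replication stress changes the transcriptome of these cells. The sources used here give no doses, no times and no interval between thymidine and nocodazole. All groups share this single line, which carries the Epstein-Barr virus genome. Whether replicates were grown as separate cultures is not stated in the labels, so p-values reflect only the spread among these samples, which may be technical.

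The 9 libraries summed to between 74940755 and 110485145 estimated counts. The B-cell markers MS4A1, CD79A, CD79B, PAX5, CD22, CR2 and BLK were in the table and passed the abundance filter. CD79A, a signalling chain of the B-cell receptor, ran from 247.5 to 261.3 CPM in DMSO, 276.7 to 336.4 in HU, beside 243.9 to 285 in Thy-Noc. Its partner CD79B ran from 560.8 to 888 CPM in DMSO, 517 to 973 in HU, beside 523 to 939.6 in Thy-Noc. Replicates of many genes lay far apart. A gap of at least 10-fold within a group was found in 1838 of the 11346 tested genes (16.2%) and in 8 of the 34 tested members. Part of the reads of a gene may be missing from its deposited value, which was not tested.

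Type I and type III interferons act through receptors that activate the kinases JAK1 and TYK2. These phosphorylate STAT proteins, among them STAT2, which join IRF9 in a complex called ISGF3. ISGF3 binds a DNA element, the interferon-stimulated response element (ISRE), in the promoters of its target genes, and IRF proteins bind the same kind of element. Interferon gamma uses another receptor and acts through a different element, GAS. The proteins made from these genes block viral RNA, tag or trap virus components and amplify signalling. Many of them can also be induced without a virus, when a cell's own DNA or RNA reaches sensors in its cytoplasm.

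The promoters of the 4 members that edgeR called higher in HU than in DMSO (4 of 34, against 2.0% of all tested genes) are shown because 3 of them hold the ISRE letters and 1 does not. Each stretch runs from 200 bases before to 10 bases into the RefSeq transcription start, 5′ to 3′ on the strand of the gene, in GRCh38.p14. Capitals mark the core of the ISRE, which is GAAA, 2 bases of any kind and GAAA again, or its reverse complement, TTTC, 2 bases of any kind and TTTC. EPSTI1 lies at chr13:42992232-42992441 on the minus strand, IFI6 at chr1:27672183-27672392 on the minus strand, IFIT5 at chr10:89414368-89414577 on the plus strand and SAMD9L at chr7:93148376-93148585 on the minus strand.
EPSTI1: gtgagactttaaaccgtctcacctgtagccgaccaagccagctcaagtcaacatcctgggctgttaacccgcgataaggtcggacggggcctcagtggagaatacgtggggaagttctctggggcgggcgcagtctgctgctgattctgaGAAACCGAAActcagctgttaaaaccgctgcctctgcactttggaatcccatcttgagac
IFI6: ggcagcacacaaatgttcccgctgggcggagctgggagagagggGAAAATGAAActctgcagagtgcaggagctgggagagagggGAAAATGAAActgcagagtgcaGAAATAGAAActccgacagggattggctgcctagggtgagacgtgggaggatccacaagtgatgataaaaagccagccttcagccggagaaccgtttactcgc
IFIT5: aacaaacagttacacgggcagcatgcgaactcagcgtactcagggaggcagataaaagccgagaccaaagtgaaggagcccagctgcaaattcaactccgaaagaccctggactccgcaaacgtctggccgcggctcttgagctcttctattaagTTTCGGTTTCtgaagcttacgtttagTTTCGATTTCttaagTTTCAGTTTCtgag
SAMD9L: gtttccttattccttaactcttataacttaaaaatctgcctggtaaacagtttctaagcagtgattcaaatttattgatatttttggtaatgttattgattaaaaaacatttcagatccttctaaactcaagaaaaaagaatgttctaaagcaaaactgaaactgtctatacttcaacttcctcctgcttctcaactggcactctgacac

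EPSTI1 holds 1 match, from position −50 to −41 relative to the start, and it overlaps a GAS-like TTCNNNGAA at −56 to −48. IFI6 holds 3 matches, of which GAAAATGAAA stands in 2 copies, and IFIT5 holds 3 on the opposite strand, the last across the start itself. SAMD9L has no match in its window, which says only that these letters are not in it. RefSeq windows of 300 bases (250 before to 50 after the start) were on hand for 31 of the 37 members, 10 of them with more than 1 start, which made 41 windows. IFIT2, OAS2, OASL, PARP10, PML and TRIM22 had none.

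Both strands of every window were searched. The ISRE core was present in 25 of the 41 windows of members (61.0%), against 3.57% of all 35116 windows and 3.11% of the 12657 windows of tested genes. Counted by gene, 21 of 31 members (67.7%) held it, against 4.2% of 8657 tested genes. The matches fell on 33 distinct stretches, and 9 members had more than 1: BST2, IFI27, IFI44L, IFI6, IFIT1, IFIT3, IFIT5, IFITM1 and ISG15. Of the 38 matches counted per window, 27 began within the 120 bases before a start. PARP9 and DTX3L, neighbours that point away from each other, share a single element at chr3:122564332-122564341. It reads GAAACTGAAA on the strand of DTX3L and TTTCAGTTTC on that of PARP9. The GAS-like TTCNNNGAA was present in 11 of the 41 windows (26.8%), against 7.66% of all windows, and 5 of its 12 matches overlapped an ISRE-like one, in BST2, EPSTI1, IFI27 and IFITM1.

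**Figure D1:**
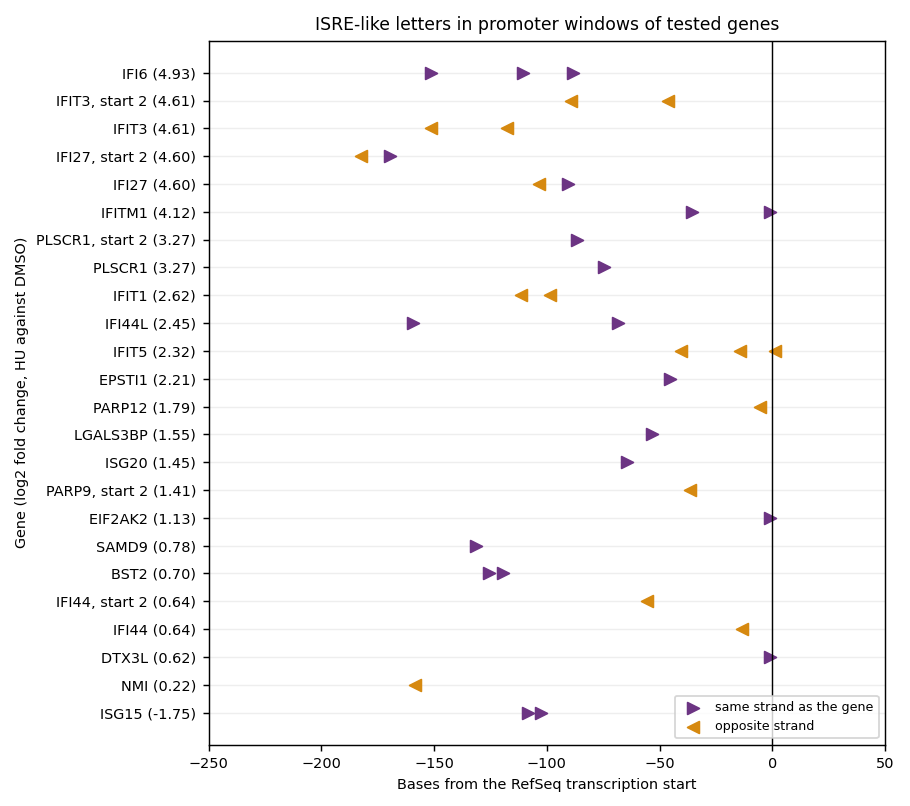
Position of each match to the ISRE core (triangles; right-pointing on the strand of the gene, left-pointing on the opposite strand) in the promoter windows of tested members, in bases from the RefSeq start at 0; a gene with a match at a second start has a further row, and the log2 fold change of HU against DMSO stands in parentheses. Most matches lie within 120 bases before the start, and genes from 4.93 (IFI6) down to −1.75 (ISG15) carry them.

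Most interferon-stimulated genes had higher values in HU than in DMSO. EPSTI1, SAMD9L, IFI6 and IFIT5 rose, and no member fell past the threshold. These 4 are 11.8% of the 34 tested members, while 2.0% of all tested genes were called higher and 1.56% lower by edgeR's quasi-likelihood test (2-sided, Benjamini-Hochberg adjusted p under 0.05). At an unadjusted p under 0.05, 19 members were higher and 0 lower, against 11.1% and 10.1% of all tested genes. In 18 members (52.9%) every HU library lay above every DMSO library, against 15.5% of all tested genes. In 0 members did every HU library lie below, against 15.3%. TRIM22 is among the 18 and among the 19, and it entered the test only through its HU libraries. With only genes that reached the CPM minimum without their HU libraries, a restriction added after seeing the data, 17 of 33 members lay wholly above DMSO, against 14.7% of such genes. Under this restriction 18 of the 33 were higher at an unadjusted p under 0.05, against 10.4% of such genes. A positive log2 fold change was found in 30 of 34 members, TRIM22 included, against 51.3% of tested genes. The median log2 fold change of the members was 1.78, from −1.75 to 4.93, and that of all tested genes was 0.02. DESeq2 called 19 members higher, TRIM22 included (9.51% of all genes), and limma 7 without it (2.77%). Neither called a member lower, against 9.31% of all genes by DESeq2 and 2.19% by limma.

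In bulk RNA, a rise in every cell and a larger rise in some of the cells cannot be told apart, nor can fewer cells of a type and less RNA per cell. The edgeR count depended on single libraries. It was 10 of 34 without HU replicate 2, when 1.33% of all tested genes were called higher and 2.34% in either direction. It was 0 without DMSO replicate 3 (0.187% in either direction), and 1 to 3 without any other library (0.34% to 2.83%).

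**Figure D2:**
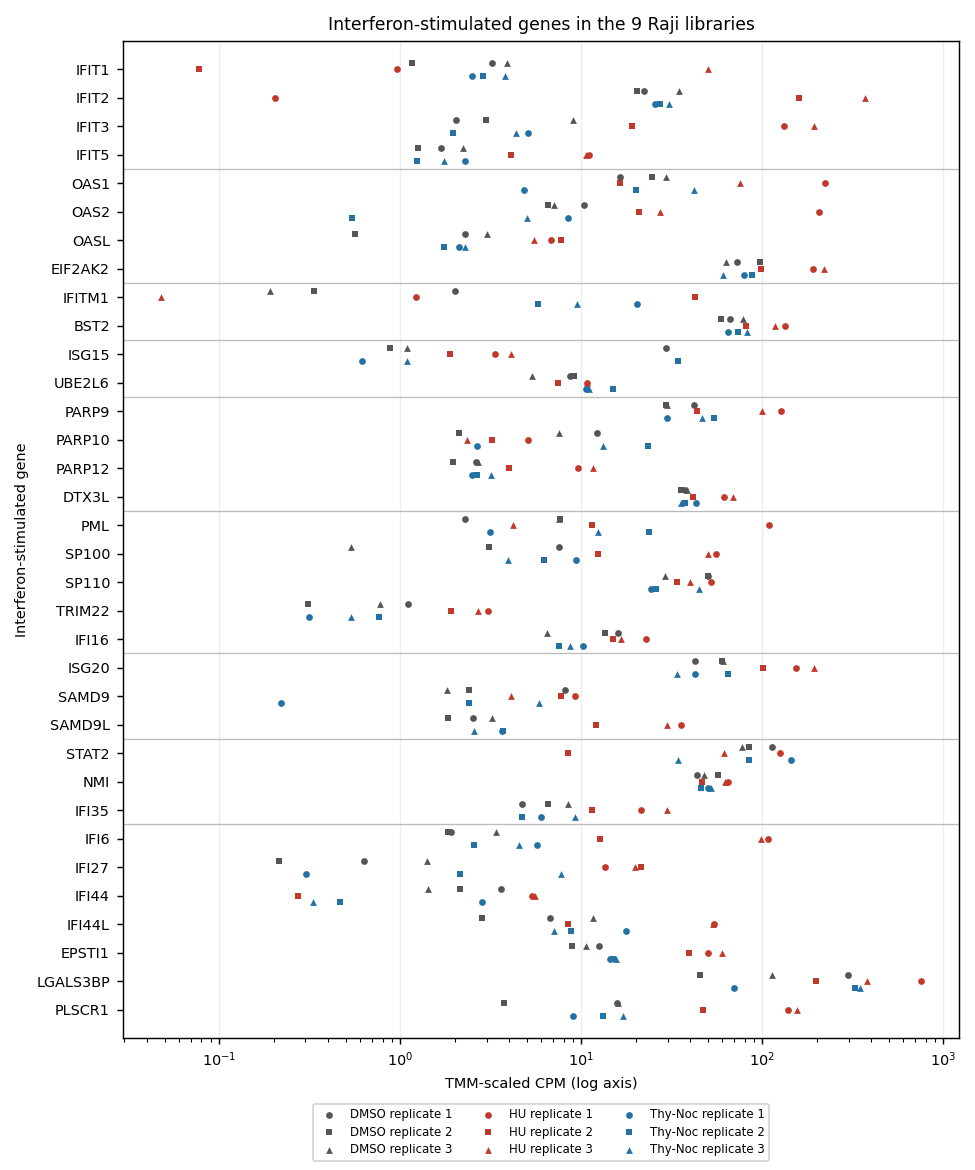
TMM-scaled CPM (log axis) of the 34 tested members in each library, 1 row per gene, with horizontal lines between the role groups; colour gives the group and marker shape the replicate. For 15 genes all 3 HU points lie to the right of all 6 others, and in most rows HU replicate 2 (squares) is the leftmost HU point.

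EPSTI1, an interferon-induced protein of epithelial-stromal interaction, had the smallest SE of the called members. The gene (ENSG00000133106) spans 42886388 to 42992271 on the minus strand of chromosome 13 (GENCODE release 29, GRCh38). It was measured at 12.5, 8.87 and 10.6 CPM in DMSO replicates 1, 2 and 3, 50, 39.1 and 59.5 in HU, beside 14.4, 15 and 15.6 in Thy-Noc. All HU libraries lay far above the other 6, and all Thy-Noc libraries just above DMSO. Its log2 fold change in HU was 2.21 ± 0.21 (SE), a 4.64-fold rise, and edgeR gave an adjusted p of 0.00884. The call ended without DMSO replicate 3 (edgeR adjusted p 0.0514) and held when any other library was left out.

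SAMD9L, an antiviral factor that restrains translation, was measured beside its paralogue SAMD9, which lies 12031 bases away on chromosome 7. SAMD9L (ENSG00000177409) stood at 2.54, 1.85 and 3.23 CPM in DMSO, 35.7, 12.1 and 29.7 in HU, beside 3.63, 3.69 and 2.56 in Thy-Noc. The lowest HU library was still more than 3 times the highest of the others. The log2 fold change in HU was 3.35 ± 0.46 (SE), a 10.2-fold rise (edgeR quasi-likelihood adjusted p 0.0222). SAMD9 stood at 8.10, 2.41 and 1.81 CPM in DMSO and 9.25, 7.74 and 4.10 in HU, where the groups overlapped (0.78 ± 1.05, edgeR adjusted p 0.765). The SAMD9L call held without HU replicate 2 or any 1 Thy-Noc library and ended without any other single library, at edgeR adjusted p up to 0.0834.

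IFI6, a mitochondrial and endoplasmic reticulum protein that counters apoptosis, had the highest log2 fold change of the list. The gene (ENSG00000126709) spans 27666061 to 27672218 on the minus strand of chromosome 1. It was measured at 1.91, 1.83 and 3.38 CPM in DMSO, 108, 12.7 and 97.7 in HU, beside 5.70, 2.56 and 4.50 in Thy-Noc. HU replicates 1 and 3 lay close together and replicate 2 far below them, yet above the other 6 libraries. The log2 fold change was 4.93 ± 0.85 (SE), a 30.6-fold rise (edgeR quasi-likelihood adjusted p 0.0325). The call held without HU replicate 2 or Thy-Noc replicate 1 and ended without any other single library, at edgeR adjusted p up to 0.128.

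IFIT proteins bind the ends of foreign RNA and keep it from being translated. The 4 genes lie in a row on the plus strand of chromosome 10, in the order IFIT2, IFIT3, IFIT1 and IFIT5, with gaps of 18617, 51574 and 8099 bases. IFIT5 (ENSG00000152778), which recognises RNA with a phosphate at its end, rose. It was measured at 1.67, 1.26 and 2.21 CPM in DMSO, 11, 4.08 and 10.6 in HU, beside 2.27, 1.23 and 1.74 in Thy-Noc. The log2 fold change in HU was 2.32 ± 0.46 (SE), a 4.99-fold rise (edgeR quasi-likelihood adjusted p 0.0455). The call held only without HU replicate 2 among the 9 libraries left out in turn, with edgeR adjusted p up to 0.148 otherwise.

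IFIT3, which stabilises IFIT1 in a complex, had a larger change that missed the threshold. Its values were 2.04, 3 and 9 CPM in DMSO, 132, 19.1 and 193 in HU, beside 5.11, 1.95 and 4.38 in Thy-Noc. Every HU library lay above the other 6 (4.61 ± 1.02, edgeR adjusted p 0.0559). IFIT1 and IFIT2 differed most within HU. IFIT1, which binds RNA that lacks cap methylation, stood at 3.22, 1.17 and 3.88 CPM in DMSO and 0.962, 0.0777 and 49.8 in HU. IFIT2, a partner of IFIT1 and IFIT3 that is linked to apoptosis, stood at 22.1, 20.2 and 34.6 CPM in DMSO and 0.203, 159.9 and 368 in HU. So IFIT1 was high in HU replicate 3 and IFIT2 in HU replicates 2 and 3, while both were below DMSO in HU replicate 1, the library in which IFIT3 stood at 132 CPM. In Thy-Noc both were even, at 2.50 to 3.81 CPM for IFIT1 and 25.6 to 30.4 CPM for IFIT2. IFIT1, IFIT2 and IFIT3 each overlap LIPA on the opposite strand, and how the counting treated strand is unknown here.

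Enzymes that respond to double-stranded RNA came next. OAS1 and OAS2 make the 2-5A messenger that activates RNase L, OASL is a relative without that activity in humans, and EIF2AK2 encodes PKR, which halts translation. OAS2 stood at 10.3, 6.56 and 7.06 CPM in DMSO, 205, 20.8 and 27.4 in HU, beside 8.5, 0.545 and 5.02 in Thy-Noc. EIF2AK2 stood at 72.6, 97.1 and 63.1 CPM in DMSO, 189.9, 98.7 and 219.6 in HU, beside 79.7, 87.1 and 60.9 in Thy-Noc. For OAS2, OASL and EIF2AK2 every HU library lay above every DMSO and Thy-Noc library, for EIF2AK2 by a small margin in HU replicate 2. Their log2 fold changes in HU were 3.40 ± 1.21, 1.78 ± 0.55 and 1.13 ± 0.32 (SE), with edgeR adjusted p of 0.169, 0.126 and 0.105. OAS1 stood at 16.3, 24.6 and 29.4 CPM in DMSO and 222, 16.4 and 75.4 in HU, so that HU replicate 2 lay among the DMSO libraries (2.16 ± 1.03, edgeR adjusted p 0.284).

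Of the membrane factors, BST2 (tetherin) holds budding virions at the cell surface and IFITM1 blocks virus entry. BST2 stood at 66.4, 59.4 and 78.2 CPM in DMSO, 134, 80.9 and 117 in HU, beside 64.9, 73.8 and 82.2 in Thy-Noc. HU lay above DMSO in every library, with replicate 2 close to the highest DMSO value (0.70 ± 0.21, edgeR adjusted p 0.115). IFITM1 stood at 2, 0.336 and 0.191 CPM in DMSO, 1.23, 42.7 and 0.0477 in HU, beside 20.3, 5.75 and 9.43 in Thy-Noc. It was the member in which the Thy-Noc libraries stood furthest above DMSO, while its HU value came from replicate 2 alone. IFITM1 overlaps IFITM2 on the same strand and belongs to a family of near-identical genes, so its values are uncertain.

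ISG15, the ubiquitin-like protein that interferon induces and that enzymes attach to other proteins, was high in single libraries only. It was measured at 29.4, 0.877 and 1.09 CPM in DMSO, 3.35, 1.89 and 4.07 in HU, beside 0.615, 34.0 and 1.09 in Thy-Noc. A single DMSO and a single Thy-Noc library were high, and the 3 HU libraries lay above the other 4. Its log2 fold change of −1.75 ± 1.82 (edgeR adjusted p 0.669) turned to 1.66 without DMSO replicate 1. UBE2L6, the E2 enzyme of ISG15 conjugation, stood at 8.66, 9.09 and 5.32 CPM in DMSO, 10.7, 7.42 and 10.8 in HU, beside 10.6, 14.9 and 11.1 in Thy-Noc. HU overlapped DMSO there, and Thy-Noc lay above it.

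PARP9 and DTX3L form a complex that ADP-ribosylates ubiquitin and acts in DNA damage signalling and antiviral responses. PARP9 stood at 42.1, 29.5 and 29.9 CPM in DMSO, 127, 43.5 and 99.5 in HU, beside 29.8, 54.3 and 46.6 in Thy-Noc. DTX3L stood at 37.5, 35.7 and 38.3 CPM in DMSO, 61.3, 41.2 and 68.6 in HU, beside 42.9, 37.2 and 35.5 in Thy-Noc. Both genes were higher in all 3 HU than in all 3 DMSO libraries, and in both HU replicate 2 was nearest to DMSO. The log2 fold changes were 1.41 ± 0.42 for PARP9 and 0.62 ± 0.19 for DTX3L (edgeR adjusted p 0.114 and 0.129), and the gene models overlap by 340 bases. PARP12, a mono-ADP-ribosyltransferase with zinc fingers that bind RNA, had 1.96 to 2.70 CPM in DMSO and 4 to 11.6 in HU (1.79 ± 0.39, edgeR adjusted p 0.0559). PARP10, another enzyme of that kind, ran the other way without passing (−1.05 ± 0.86, edgeR adjusted p 0.563), at 2.11 to 12.3 CPM in DMSO and 2.34 to 5.09 in HU.

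SP100 and PML build the nuclear bodies that silence viral genomes. SP100 stood at 7.53, 3.11 and 0.534 CPM in DMSO, 55.1, 12.3 and 50.3 in HU, beside 9.34, 6.22 and 3.96 in Thy-Noc. All HU libraries lay above the other 6 (3.40 ± 1.01, edgeR adjusted p 0.115). PML stood at 2.27, 7.67 and 7.54 CPM in DMSO and 108, 11.5 and 4.21 in HU, so that replicate 1 carried most of its log2 fold change of 2.82 ± 1.31 (edgeR adjusted p 0.275). TRIM22, a restriction factor of retroviruses, passed the abundance filter only through its HU libraries. It had 0.308 to 1.10 CPM in DMSO, 1.91 to 3.04 in HU, beside 0.314 to 0.766 in Thy-Noc. SP110, a relative of SP100, was near level (−0.03 ± 0.33), and IFI16, a nuclear DNA-binding protein, overlapped between HU and DMSO (0.59 ± 0.35). SP140, RSAD2 and TRIM25 were in the table but too low to test. SP140 had 0.177 to 0.56 CPM in DMSO and 0.696 to 0.92 in HU, RSAD2, which encodes viperin, had 14.2 in HU replicate 1 and at most 1.63 CPM elsewhere, and TRIM25 had at most 1.08 CPM in any library.

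ISG20, an RNA exonuclease, stood at 42.5, 59.7 and 61.0 CPM in DMSO, 154, 100.4 and 192 in HU, beside 42.3, 65 and 33.6 in Thy-Noc. Every HU library lay above the other 6 (1.45 ± 0.33, edgeR adjusted p 0.0594). PLSCR1, a phospholipid scramblase that also acts in the nucleus, stood at 15.7, 3.73 and 16.0 CPM in DMSO, 139, 46.8 and 156 in HU, beside 8.95, 13.2 and 17.1 in Thy-Noc. It too separated HU from all other libraries (3.27 ± 0.70, edgeR adjusted p 0.0521). IFI35, a leucine-zipper protein that partners NMI, stood at 4.69, 6.53 and 8.43 CPM in DMSO, 21.3, 11.5 and 29.8 in HU, beside 6.01, 4.68 and 9.23 in Thy-Noc (1.67 ± 0.43, edgeR adjusted p 0.0844). NMI itself overlapped between the groups, at 43.5 to 57.1 CPM in DMSO and 46.2 to 64.6 in HU.

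IFI27, a small mitochondrial protein, stood at 0.634, 0.215 and 1.41 CPM in DMSO, 13.4, 21.5 and 19.7 in HU, beside 0.3, 2.14 and 7.78 in Thy-Noc. It was among the 3 members with their highest HU value in replicate 2, and every HU library exceeded the others (4.60 ± 1.23, edgeR adjusted p 0.0913). IFI44L, a cytoplasmic protein encoded 3650 bases from IFI44, had 2.83 to 11.6 CPM in DMSO and 8.44 to 53.8 in HU, overlapping through HU replicate 2 (2.45 ± 0.82, edgeR adjusted p 0.149). IFI44 had 1.42 to 3.60 CPM in DMSO and 0.272 to 5.52 in HU, and LGALS3BP, a secreted galectin-binding glycoprotein, 45.4 to 297 CPM and 198 to 755 CPM. STAT2, the ISGF3 subunit that carries the activation domain, stood at 114, 84.8 and 77.0 CPM in DMSO and 125, 8.45 and 61.0 in HU (−0.50 ± 0.87, edgeR adjusted p 0.833). Its HU values spread more widely than the groups differed.

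**Figure D3:**
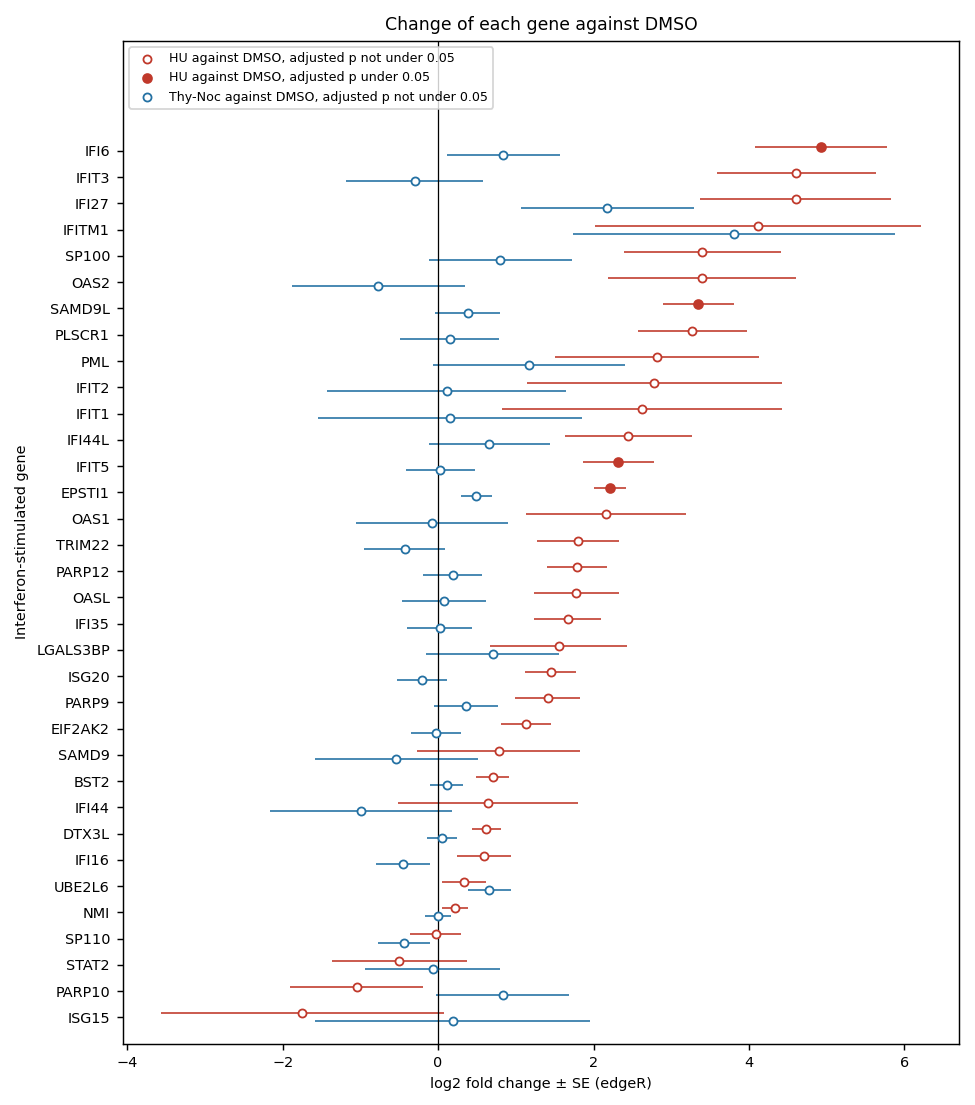
Log2 fold change of each tested member in HU (red) and in Thy-Noc (blue) against DMSO, with bars of 1 SE from edgeR; filled points have an adjusted p under 0.05. HU points of 30 of 34 genes lie above 0 and 4 are filled. Thy-Noc points run from −0.99 (IFI44) to 3.81 (IFITM1), with a median of 0.11, and none is filled.

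In Thy-Noc no member passed the test. EdgeR called 0 of the 34 members higher or lower, against 0.0264% and 0.00881% of all tested genes. DESeq2 also called 0 (1.58% of all genes in either direction), as did limma (0.106%). At an unadjusted p under 0.05, UBE2L6 and EPSTI1 were higher (2.45% of all genes) and no member was lower (2.04%). The median log2 fold change of the members was 0.11, from −0.99 to 3.81, and that of all tested genes was 0.01. A positive fold change was found in 22 of 34 members, against 51.1% of all genes. In IFITM1, UBE2L6 and EPSTI1 every Thy-Noc library lay above every DMSO library, against 5.18% of all genes, and in 0 members did every one lie below (4.79%). Their log2 fold changes were 3.81 ± 2.07, 0.66 ± 0.28 and 0.49 ± 0.20 (SE), each with an edgeR adjusted p of 1.0. The median SE of the members was 0.68 in this comparison. Even the log2 fold change of IFITM1, 3.81 ± 2.07, did not pass. Small changes, and in widely spread members large ones, could therefore go undetected.

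The direct comparison of HU with Thy-Noc asked whether the 2 treated groups differ from each other. EPSTI1 and SAMD9L were higher in HU past the threshold, at log2 fold changes of 1.72 ± 0.20 and 2.97 ± 0.45 (edgeR quasi-likelihood adjusted p 0.0186 and 0.0358). That is 2 of 34 members, against 0.696% of all tested genes higher and 1.06% lower, and no member was called lower. At an unadjusted edgeR p under 0.05, 18 members were higher, TRIM22 included, and 0 lower, against 10.1% and 9.34% of all tested genes. In 16 members every HU library lay above every Thy-Noc library, against 12.9% of all genes, and in 0 every one lay below (12.0%). TRIM22 is among the 16, and the restriction to genes that reached the CPM minimum without their HU libraries left 15 of 33 (12.2%). The fold change was positive in 30 of 34 members, TRIM22 included, against 50.7% of all genes. The median was 1.66 for the members and 0.01 for all genes. DESeq2 called 15 members higher (7.93% of all genes) and limma 4 (1.3%), with TRIM22 among both. Neither called one lower, against 8.16% of all genes by DESeq2 and 1.57% by limma.

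IFI6 and IFIT5 missed the threshold in this comparison at 4.09 ± 0.82 and 2.29 ± 0.46 (edgeR adjusted p 0.057 for each), as did ISG20 at 1.66 ± 0.33 (0.0567) and IFIT3 at 4.91 ± 1.03 (0.0636). IFI16 separated HU from Thy-Noc though not from DMSO, with 16.1, 13.5 and 6.5 CPM in DMSO, 22.8, 15.1 and 16.5 in HU, beside 10.2, 7.49 and 8.69 in Thy-Noc. The sign for IFITM1 depended on the processing, at 0.31 ± 1.85 by edgeR and −4.21 without HU replicate 2. The SAMD9L call held only without HU replicate 2 when libraries were left out in turn (edgeR adjusted p up to 0.124). The EPSTI1 call held without HU replicate 2 or any 1 DMSO library and ended without the other libraries (up to 0.086). Both comparisons with HU share its 3 libraries, so they are not independent of each other.

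Over all tested members, 15 had every HU library above all 6 others, against 9.55% of all tested genes. They were IFIT3, IFIT5, OAS2, OASL, EIF2AK2, PARP12, SP100, TRIM22, ISG20, SAMD9L, IFI35, IFI6, IFI27, EPSTI1 and PLSCR1. They span most roles of the list: RNA binding, double-stranded RNA sensing enzymes, nuclear bodies, nucleases and mitochondrial proteins. No member of ISG15 conjugation and neither membrane factor was among them. TRIM22 had to be high in HU to be tested at all, and with only genes that reached the CPM minimum without their HU libraries the count was 14 of 33, against 9.08% of such genes.

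The HU libraries differed among themselves across the list. Set against the DMSO mean, the median member stood at 1.62 on the log2 scale in HU replicate 1, 0.79 in replicate 2 and 1.63 in replicate 3. The same median over all tested genes lay between 0.00 and 0.04 in every library. HU replicate 2 held the lowest of the 3 HU values in 27 of 34 members, a position it held for 36.4% of all tested genes. Members above all 3 DMSO libraries numbered 29, 21 and 27 in HU replicates 1, 2 and 3 (34.0%, 34.4% and 33.5% of all genes). In Thy-Noc they numbered 10, 11 and 14 (29.6%, 28.1% and 27.0%). HU replicate 2 had 74940755 estimated counts, replicate 1 had 75854730 and replicate 3 had 95298522. Without HU replicate 2, the members with every HU library above every DMSO library numbered 25 rather than 18, against 22.3% of all genes. The part of depth or of any other feature of this library in the result was not tested.

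**Figure D4:**
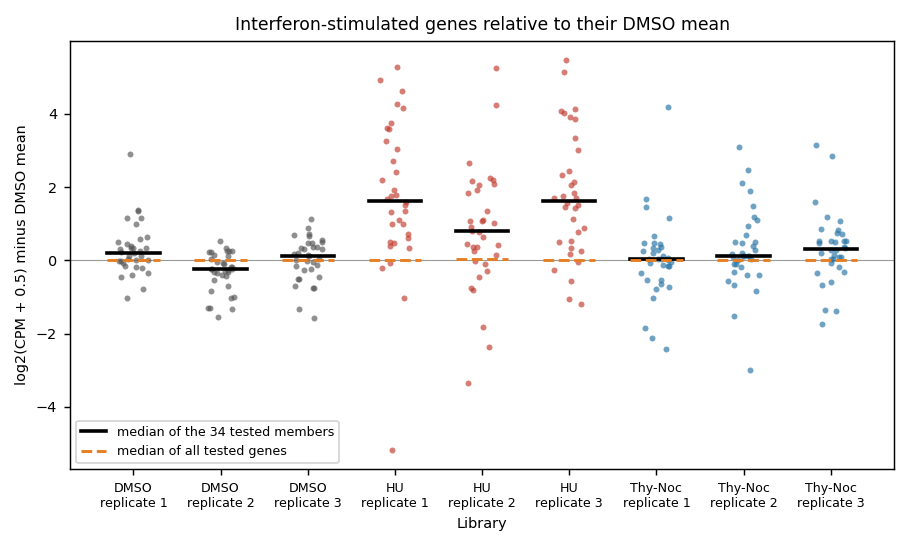
Log2(CPM + 0.5) of each of the 34 tested members minus its DMSO mean, 1 point per gene and library, with the median of the members (black bar) and of all tested genes (dashed orange bar). The black bars of HU stand at 1.62, 0.79 and 1.63, those of Thy-Noc at 0.04, 0.13 and 0.31, and the dashed bars stay at 0.00 to 0.04.

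The members with ISRE letters in their promoters were set beside those without. Of all tested genes, 15.5% had every HU library above every DMSO library and 2.0% were called higher. Of 20 tested members with the ISRE core, 12 had every HU library above every DMSO library and 3 were called, with a median log2 fold change of 1.67. Of 8 tested members whose windows lacked it, 3 had every HU library above and 1 (SAMD9L) was called, with a median of 1.13. The ranges overlapped, from −1.75 to 4.93 and from −0.50 to 3.40, and the difference was not tested. ISG15 holds 2 matches, which begin at positions −113 and −107, and its HU libraries overlapped DMSO.

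The 8 members whose libraries lay at least 10-fold apart within a group were IFIT1, IFIT2, OAS1, IFITM1, ISG15, PML, STAT2 and IFI27. In 6 of them (IFIT1, IFIT2, OAS1, IFITM1, PML and STAT2) the HU group was the spread one. With all 9 libraries, edgeR called none of the 8 in any comparison. Without HU replicate 1 it called IFIT2 higher in HU than in DMSO (log2 fold change 3.37, edgeR adjusted p 0.0461). IFI27 had an unadjusted p of 0.00685 in HU against DMSO and was the only one of the 8 that DESeq2 or limma called there. Of the 37 members in the table, 20 overlap another annotated gene and 13 a protein-coding one, and reads of such pairs cannot be told apart where the counting ignored strand.

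Other genes of the interferon pathway were taken from a list of 50 ligands, receptors, kinases, STATs, inhibitors and IRFs, of which 24 were in the table and all 24 were tested. None of the 21 listed interferon genes was among them, and they were not analysed here. In HU, 3 of the 24 rose and none fell by edgeR, beside the 2.0% and 1.56% of all tested genes, with 19 positive fold changes (51.3% of all tested genes) and a median of 0.76. With only the 6 libraries compared, edgeR called 0 of the 24 in HU (0.466% of all genes in either direction). With a replicate block (the replicate number as an added term) it also called 0 (0.0793%). Without a filter edgeR called 2 (1.43%), IRF7 being lost. DESeq2 and limma each called 5 higher, with IFNGR2 and IRF9 added (9.51% and 2.77% of all genes higher), and none lower (9.31% and 2.19%). In Thy-Noc edgeR, DESeq2 and limma called none of the 24 (edgeR called 0.0264% of all tested genes higher and 0.00881% lower), with IFNAR2 alone at an unadjusted p under 0.05 (2.45% of all genes higher). In HU against Thy-Noc edgeR called only SOCS1, higher in HU, against 0.696% of all tested genes higher and 1.06% lower. That call was lost with only the 6 libraries (0.165% of all genes), with the replicate block (0) and without a filter (0.415%). DESeq2 called 4 of the 24 higher there and limma 2 (7.93% and 1.3% of all genes higher).

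IFNGR1, the ligand-binding chain of the interferon gamma receptor, stood at 131, 139 and 169 CPM in DMSO, 369.6, 235 and 312 in HU, beside 191, 172 and 191 in Thy-Noc. It rose in HU by 1.06 ± 0.18 on the log2 scale (edgeR quasi-likelihood adjusted p 0.031). SOCS1, which switches off JAK kinases and is itself induced by interferon, stood at 4.02, 3.44 and 5.89 CPM in DMSO, 11.6, 12.8 and 11.8 in HU, beside 5.12, 5.37 and 4.44 in Thy-Noc. Its HU libraries were nearly level, replicate 2 included, and it rose by 1.44 ± 0.23 (edgeR adjusted p 0.0277), and by 1.28 ± 0.23 against Thy-Noc (0.0485).

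IRF7, the factor that amplifies type I interferon production, stood at 14.2, 2.65 and 10.7 CPM in DMSO, 131, 60.8 and 177 in HU, beside 9.37, 13.2 and 7.23 in Thy-Noc. It rose by 3.74 ± 0.70 (edgeR quasi-likelihood adjusted p 0.0408). IRF9, the DNA-binding subunit of ISGF3, stood at 1.57, 1.12 and 2.92 CPM in DMSO, 8.73, 5.91 and 13.3 in HU, beside 1.74, 2.78 and 1.13 in Thy-Noc. All its HU libraries lay above the rest, and it missed the threshold (2.31 ± 0.53, edgeR adjusted p 0.0599). In IRF7 and IRF9, as in most of the interferon-stimulated genes, HU replicate 2 was the lowest of its group.

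When libraries were left out in turn, the IFNGR1 call in HU held without HU replicate 2 or Thy-Noc replicate 1, and the SOCS1 call without any 1 Thy-Noc library. The IRF7 call held only without HU replicate 2. The edgeR adjusted p reached 0.118, 0.0991 and 0.121 otherwise, and the SOCS1 call against Thy-Noc ended without any single library.

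Few markers of other cell types were in the table. Of 5 monocyte or macrophage markers, LYZ and CD68 were in the table, and their summed level ran from 0.331 to 0.596 CPM in DMSO, 1.14 to 2.64 in HU, beside 0.286 to 0.963 in Thy-Noc. Of 4 NK-cell markers 1 was in the table (NKG7, at most 0.913 CPM), and none of 5 T-cell or 3 epithelial markers was. Of 3 fibroblast markers 1 was in the table: COL1A1, a collagen chain, had 1.30 to 3.88 CPM in DMSO, 8.09 to 13.7 in HU, beside 1.97 to 5.19 in Thy-Noc. Of 4 plasmacytoid dendritic cell markers, LILRA4 had 0.33 to 0.429 CPM in DMSO, 0.674 to 1.23 in HU, beside 0.311 to 0.727 in Thy-Noc, and TCF4, also made by B cells, ran from 2.42 to 796 CPM within DMSO alone. LYZ, CD68, COL1A1 and LILRA4 were thus higher in every HU than in every DMSO library. Among tested genes, of which COL1A1 is one, that share was 15.5%. The log2 fold change of COL1A1 in HU against DMSO was 1.97 ± 0.52 (SE, edgeR adjusted p 0.0859). Its HU libraries also lay above every Thy-Noc library. LYZ, CD68 and LILRA4 were below the abundance filter, at 9 to 46 estimated counts per DMSO library, and were not tested. The part of any of these markers in the result was not tested.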

How the data were processed

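Libraries were stranded mRNA libraries, per the labels. FastQC, Trim Galore, STAR, DESeq2 and GRCh38 appear in the submitters' processing notes, without roles or versions, and no source used here says how reads were counted. The authors deposited 1 table, whose name says CPM, but whose values are whole numbers with unequal totals and no 0 (274 genes are at 1 in all 9 libraries), so the deposited values were treated as estimated counts made by the authors from their reads. Counts were scaled by TMM and fitted in edgeR 4.0.16 (R 4.3.3) by a quasi-likelihood model of the 3 groups over all 9 libraries, with 11346 genes that had a CPM of 1 or more in 3 or more libraries, 6 residual degrees of freedom and Benjamini-Hochberg adjustment. SEs were derived from fold change and F statistic. DESeq2 1.42.0 and limma 3.58.1 (pseudocount 0.5 CPM) were alternatives. The steps were tested on simulated counts. Chi-square per degree of freedom between replicates ran from 930 to 1230, so no library repeats another. Members, lists and tests were chosen with earlier results of these data known. Values in every library are given for called members, for members with a mean CPM of at least 5 whose treated libraries do not overlap DMSO, and for IRF7 and IRF9; a further gene under that rule is not reported here. Some other members were added after their values were seen. Gene positions follow GENCODE release 29 and promoters RefSeq (GRCh38.p14).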

Additional observations from a re-analysis of the deposited data

How the results depend on the processing

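Shares in parentheses are of all genes tested under the same setting, called in either direction. For HU against DMSO, edgeR called 4 members (3.56%). The count was 3 without a filter (1.43%), 6 with a CPM minimum of 5 (6.08%), 4 with median-of-ratios (3.38%) or total-count scaling (3.29%), 19 by DESeq2 (18.8%), 7 by limma (4.95%), 1 with only the 6 libraries compared (0.466%) and 9 without genes whose replicates lay 10-fold apart (7.58%). For HU against Thy-Noc the main count of 2 (1.75%) became 1 without a filter (0.415%), 4 with the CPM minimum of 5 (3.75%), 15 by DESeq2 (16.1%), 4 by limma (2.87%), 0 with only the 6 libraries (0.165%) and 7 without the spread genes (4.96%), and stayed 2 with median-of-ratios (1.69%) and total-count scaling (1.38%). Leaving out each library in turn gave 0 to 10 members for HU against DMSO (0.187% to 2.83% of all genes) and 0 to 6 for HU against Thy-Noc (0.00886% to 0.923%), in both the highest count of members without HU replicate 2. TRIM22, tested only through its HU libraries, is among the DESeq2 calls of both HU comparisons and the limma calls against Thy-Noc. For Thy-Noc against DMSO the count was 0 under all of these settings. In a fit with a replicate block, that is, the replicate number as an added term, the counts were 0 in all 3 comparisons (0.0793% of all genes for HU against DMSO and 0 genes for the others), for the pathway genes too. Whether the numbers pair the samples is not known here. Deviations from the group means correlated at −0.035 to 0.04 between same-numbered libraries of different groups, and at −0.054 to 0.033 between differently numbered ones. Such values cannot decide it, because replicates of many genes lay far apart.

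The count of members with every HU library above every DMSO library, 18 (15.5% of all tested genes), was recomputed under alternatives chosen after seeing the data. It was 18 with total-count scaling and 19 without a filter, settings for which the share of all genes is not given here. Without genes that passed the filter only through HU libraries it was 17 of 33, against 14.7% of such genes. When DMSO or HU libraries were left out in turn it was 18 to 25. The share of all genes then rose too, to between 19.3% and 22.3%. Over the alternatives the log2 fold change in HU ran from 2.06 to 2.36 for EPSTI1, 3.01 to 3.69 for SAMD9L, 4.22 to 5.44 for IFI6 and 1.94 to 2.66 for IFIT5. In HU against DMSO, 29 of 34 members kept their sign under every alternative; IFIT1, IFITM1, ISG15, SP110 and STAT2 did not. The cause of these shifts was not tested. Low members rest on few counts in DMSO, with 33 to 87 for TRIM22 and 23 to 111 for IFI27, and the part of depth in the precision was not tested.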
